A study of Mus musculus with 41 samples.

Results

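Hey1, Hey2 and Heyl are the members of the Hey family of transcriptional repressors, and their RNA was measured by RNA-seq in MEEC, an endocardial line (WT) from mouse embryos, in 41 libraries that form 13 groups. The members were found by symbol in the gene names of the first table and followed by Ensembl identifier in all 3 tables, so they are 3 of the 14133 genes listed in at least 1 table. All 3 are listed in the first table (13886 genes) and the third (13407 genes), and Hey1 and Hey2 but not Heyl in the second (12984 genes).

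In the first experiment, MEEC were seeded over a 90% confluent layer of OP9 stromal cells that carried GFP, Dll4 or Jag1, for 6 h (MEEC at 50% confluency) or 24 h (at 25%), with 3 libraries in each of the 6 groups. In the second, a gamma-secretase inhibitor, RO4929097 (20 µM), or its vehicle DMSO was given to MEEC for 24 h before they were moved over OP9-GFP for 6 h, with 4 libraries in each of the 2 groups. In the third, MEEC grew without feeders for 38 h, the last 14 h free of serum, on wells with DMSO and no ligand (called DMSO here), on coated DLL4-His or JAG1-Fc with DMSO (rDLL4 and rJAG1), or on either ligand with 20 µM RO4929097 (rDLL4+RO and rJAG1+RO), with 3 libraries in each of the 5 groups. The 2 times of the first experiment therefore differ in seeding density as well as in time. All cells are of 1 line, and the labels say neither that libraries came from separate cultures nor that OP9 cells were removed before RNA was taken, so reads of MEEC and of feeder cells cannot be told apart, and p-values measure the spread between these libraries only.

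Notch is a receptor that is cut when a Delta or Jagged ligand on a neighbouring cell or a coated surface pulls on it. Gamma-secretase makes the last cut and frees the intracellular domain, which joins the DNA-binding protein RBPJ and Mastermind coactivators at target genes such as the Hey genes. Hey proteins are basic helix-loop-helix-Orange factors that bind E-boxes as dimers with each other or with Hes proteins and recruit corepressors. In the embryonic heart Hey1 marks the atria and Hey2 the ventricles, both help to keep Bmp2 and Tbx2 out of the chambers, and the family acts in the endocardium during valve formation.

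On the annotation of build GRCm38 used here (GENCODE M21), Hey1 (ENSMUSG00000040289) lies on chromosome 3 at 8663359 to 8667256, Hey2 (ENSMUSG00000019789) on chromosome 10 at 30832359 to 30842801, both on the minus strand, and Heyl (ENSMUSG00000032744) on chromosome 4 at 123233556 to 123249875 on the plus strand. Their exons cover 3265, 4593 and 5113 bp. Of the 3 members, Hey2 has an entry in the RefSeq promoter table used here (GRCm38.p6, 250 bases before to 50 after the start site at base 30842783). It is shown because its window holds the letters CGTGGGAA, an extended form of the RBPJ site, more than once, and Hey2 RNA passed the test in 8 of the 9 main comparisons below. The sequence runs 5′ to 3′ along the sense (minus) strand of the gene at chr10:30842802-30843033, upstream of the annotated gene. The second line gives 30 bases around the start site at chr10:30842770-30842799. Capitals mark the motif, read on the opposite strand in the first line and on the same strand in the second.
Hey2 upstream: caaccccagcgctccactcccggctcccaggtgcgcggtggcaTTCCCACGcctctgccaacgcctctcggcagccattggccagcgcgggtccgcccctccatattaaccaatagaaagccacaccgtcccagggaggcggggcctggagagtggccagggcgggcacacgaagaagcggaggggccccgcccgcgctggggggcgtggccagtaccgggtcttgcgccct
Hey2 start: ctgggctgcagCGTGGGAAagaacctccag

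The 2 matches lie at 30842983 to 30842990, starting 207 bases upstream of the start site, and at 30842781 to 30842788, across the start site. Of 32851 promoter windows of the same 300 bases, searched on both strands, 0.734% held CGTGGGAA at least once and 0.0122% (4 windows) held it 2 or more times. Its core TGGGAA, which lies inside the longer motif, was in 25.6% of windows and 2 or more times in 3.79%, and the Hey2 window holds it at these same positions only. The E-box letters CACGTG and CACGCG were not found in the Hey2 window, and 7.15% and 9.27% of all windows held them. A match is a description of the letters and not evidence that a factor binds there.

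Libraries held 14.1 to 16.8, 19.4 to 25.2 and 11.2 to 34.2 M reads in the 3 experiments, and values below are the deposited normalized signal, which is close to RPM. A count of 0 allows up to 3 reads at 95% confidence, which is a signal of 0.179 to 0.221, 0.119 to 0.158 and 0.0859 to 0.266, and a library with 0 reads still shows a small signal because of an offset of 0.5 reads. Of 12 endothelial and endocardial markers, 7 were listed in the first experiment and the third and 6 in the second, with a summed signal of 77.4 to 109, 102 to 129 and 101 to 196, while the defining markers Pecam1, Cdh5, Tie1, Emcn and Erg were listed in none. Markers chosen for OP9 stroma summed to 4985 to 8569 in the libraries with feeders of the first experiment and to 5363 to 8463 in the third, which had no feeders, so they do not measure feeder RNA here. In bulk RNA, fewer cells of a type and less RNA per cell cannot be told apart. The DMSO library numbered 3 of the third experiment stood apart from the other 2 of its group (mean chi-square per gene 35.3 and 52.5, against 11.1 between those 2). Library 2 stood apart in each 6 h feeder group (12.9 to 32.3, against 5.48 to 7.18 between the others) and on rJAG1 (17.9 and 22.2, against 6.91). Some of the main results that rest on these libraries are also given without them.

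**Figure D1:**
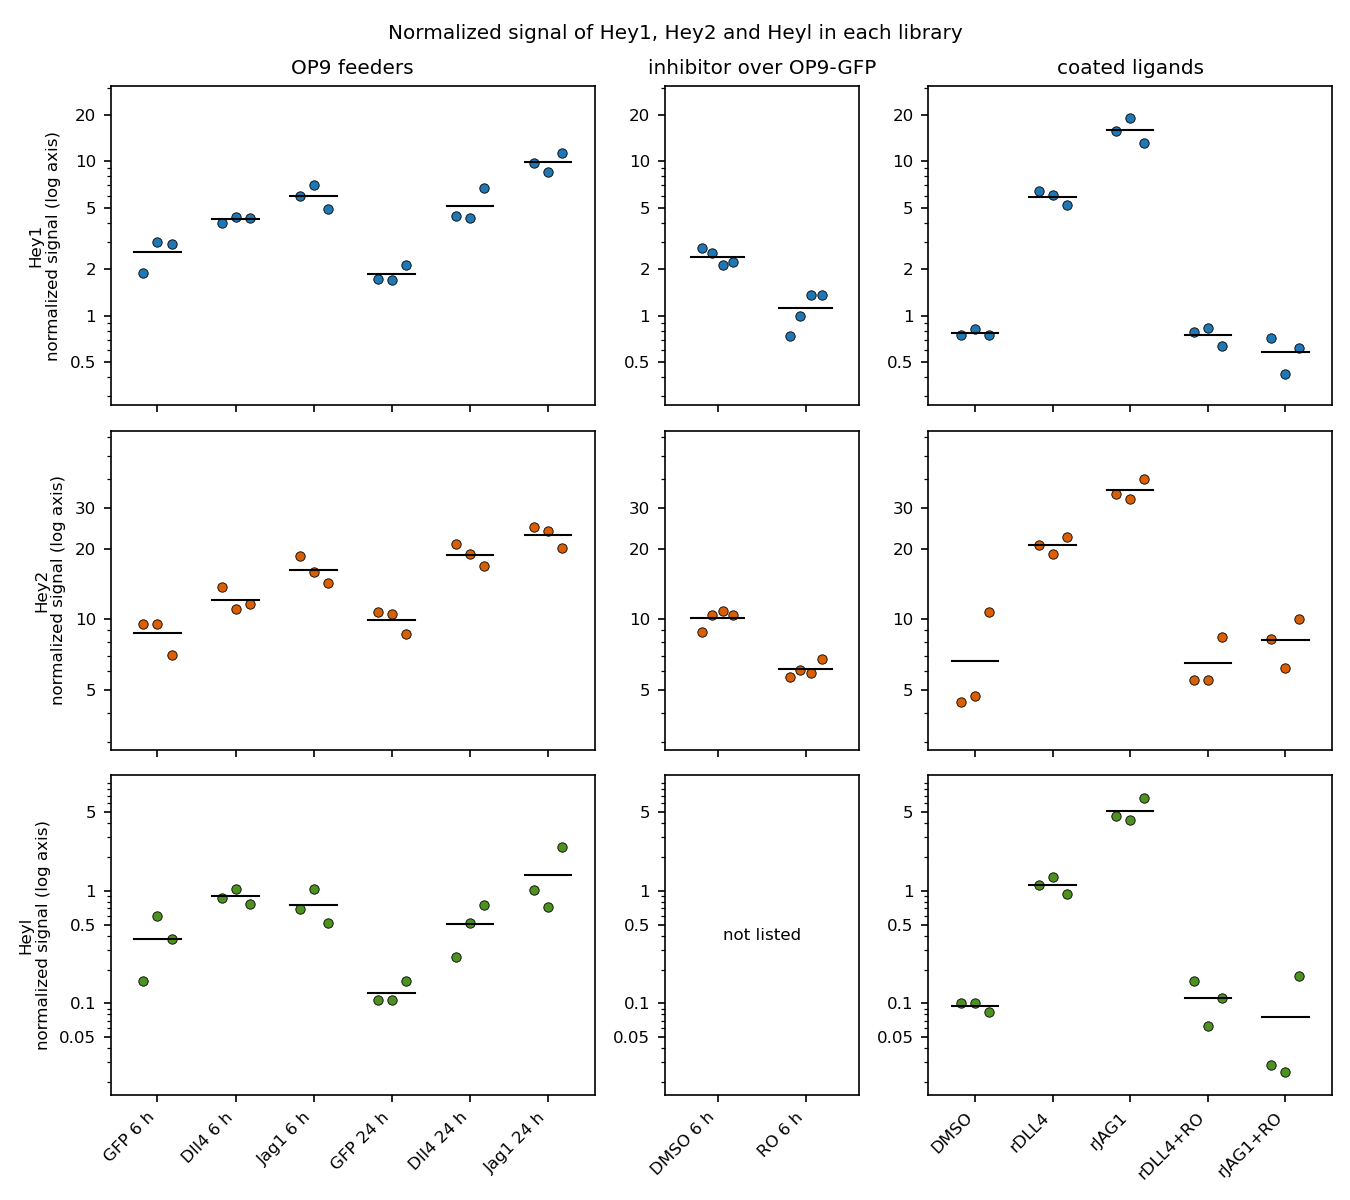
Normalized signal (log axis) of Hey1, Hey2 and Heyl in each of the 41 libraries, by group and experiment; points are libraries in order of their number and lines are group means. Signal of each member was highest over OP9-Jag1 at 24 h in the feeder experiment and on rJAG1 among coated wells, and Heyl is not listed in the inhibitor experiment over OP9-GFP.

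Every gene listed reached a signal of 1 in at least 3 libraries of its table (4 in the second). Hey2 did so in all 41 libraries. Hey1 did so in 18 of 18, 7 of 8 and 6 of 15, the last 6 all on rDLL4 or rJAG1, and Heyl in 4 of 18 libraries of the first experiment, all with ligand, and in 5 of 15 of the third, all on rDLL4 or rJAG1. Heyl in both tables, and Hey1 in the third, are therefore listed because of the groups in which they are high. Their differences below are measurements of these genes, and the number of members that changed is not evidence about the family.

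Coated ligand raised all 3 members. The comparison of rDLL4 and rJAG1 with DMSO sets coated ligand against no ligand in the absence of feeders. The labels name no well coated with a tag or other protein in place of ligand, so ligand, tag and coating cannot be told apart. Hey1 stood at 0.748, 0.816 and 0.754 in the 3 DMSO libraries, at 6.46, 6.01 and 5.19 on rDLL4 and at 15.7, 19.2 and 13.1 on rJAG1. The 3 groups did not overlap, and rJAG1 libraries were the highest. Mean Hey1 signal was 7.62-fold higher on rDLL4 (5.89 ± 0.64, SD, n = 3) and 20.8-fold higher on rJAG1 (16.0 ± 3.05) than on DMSO (0.772 ± 0.038). On the log2(signal + 1) scale, which understates changes of weak genes, limma gave Hey1 differences of 1.95 ± 0.14 (SE; adjusted p = 2.12e-06) and 3.25 ± 0.14 (adjusted p = 2.45e-09).

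Hey2, the most abundant member per kb, stood at 4.43, 4.71 and 10.8 in the DMSO libraries, at 20.7, 19.0 and 22.4 on rDLL4 and at 34.3, 32.6 and 40.0 on rJAG1. DMSO library 3 lay well above the other 2 and still below every ligand library. Mean Hey2 signal was 3.12-fold higher on rDLL4 (20.7 ± 1.69) and 5.36-fold higher on rJAG1 (35.6 ± 3.87) than on DMSO (6.65 ± 3.60). Its log2 differences in limma were 1.60 ± 0.25 (adjusted p = 0.00161) and 2.35 ± 0.25 (adjusted p = 1.36e-05), and 1.96 and 2.71 without DMSO library 3.

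Heyl, the weakest member and also a Notch target in vascular smooth muscle, had 6 reads in the 3 DMSO libraries together, with signals of 0.101, 0.100 and 0.0838. On rDLL4 it stood at 1.13, 1.33 and 0.932 (62 reads), and on rJAG1 at 4.59, 4.25 and 6.59 (232 reads). No library of the 3 groups overlapped with one of another. From pooled reads Heyl was 14.5-fold higher on rDLL4 (exact 95% interval 6.31 to 41.1, counting error only) and 66.8-fold higher on rJAG1 (30.2 to 184). Log2 differences were 0.96 ± 0.16 (adjusted p = 0.00235, limma) and 2.47 ± 0.16 (adjusted p = 1.48e-07). Among all genes tested, 2.45% were called higher on rDLL4 and 4.83% on rJAG1, against 3 of 3 members in each. Hey1 and Heyl are listed in this experiment through these ligand groups, so that count is not evidence about the family. Both comparisons use the same DMSO libraries. With the numbers of the libraries as a block, which pairs same-numbered libraries, all 6 calls stood. Without rJAG1 library 2 the rJAG1 differences were 3.12, 2.41 and 2.57 for Hey1, Hey2 and Heyl, and all were called. The summed signal of the endothelial and endocardial markers was 101 to 114 on rJAG1, 121 to 151 on rDLL4 and 133 to 196 on DMSO, and its part in the Hey differences was not tested.

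RO4929097 lowered all 3 members on both coated ligands. Hey1 fell from the ligand levels above to 0.785, 0.828 and 0.639 in the rDLL4+RO libraries and to 0.717, 0.420 and 0.621 in the rJAG1+RO libraries. Inhibitor libraries did not overlap with ligand libraries. The mean Hey1 signal on ligand was 7.84-fold that with inhibitor on rDLL4 and 27.4-fold on rJAG1. The log2 differences were -1.97 ± 0.14 (adjusted p = 4.45e-07, limma) and -3.41 ± 0.14 (adjusted p = 7.16e-10).

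Hey2 fell to 5.49, 5.54 and 8.46 with inhibitor on rDLL4 and to 8.23, 6.20 and 10.0 on rJAG1. Its mean was 3.19-fold higher on rDLL4 and 4.38-fold higher on rJAG1 than with the inhibitor added, again with no overlap. Log2 differences were -1.55 ± 0.25 (adjusted p = 0.000607, limma) and -2.02 ± 0.25 (adjusted p = 2.93e-05). Hey2 thus kept a signal of at least 4.43 in every library of the third experiment, whatever the treatment.

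Heyl fell to near the detection floor. Its signals were 0.157, 0.0637 and 0.113 in the rDLL4+RO libraries, with 5 reads in all, and 0.0287, 0.0247 and 0.174 in the rJAG1+RO libraries, with 3 reads in all. Pooled reads were 13.3-fold higher on rDLL4 than with inhibitor (exact 95% interval 5.40 to 42.4) and 99.6-fold higher on rJAG1 (33.7 to 486). Log2 differences were -0.94 ± 0.16 (adjusted p = 0.000905, limma) and -2.50 ± 0.16 (adjusted p = 3.42e-08). Among all genes, 5.76% were called lower with the inhibitor on rDLL4 and 8.78% on rJAG1, against all 3 members in both. As Hey1 and Heyl are listed here through the ligand groups, that count too is not evidence about the family.

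Against DMSO, no member passed the test on either ligand once the inhibitor was present, while 1.4% of genes were called on rDLL4+RO (74 higher and 114 lower) and 0.94% on rJAG1+RO (50 and 76). With the block these counts were 289 and 298, and 170 and 219, again with no member among them. For Hey1 the 95% intervals of the log2 difference from DMSO ran from -0.32 to 0.28 on rDLL4+RO and from -0.47 to 0.14 on rJAG1+RO. For Heyl they ran from -0.31 to 0.35 and from -0.36 to 0.30. For Hey2 they were wider, -0.48 to 0.57 and -0.19 to 0.86, and the rJAG1+RO difference of 0.33 (adjusted p = 0.789, limma) became 0.69 (adjusted p = 0.0932) without DMSO library 3. Likewise the rDLL4+RO difference of Hey2 was 0.045 with all libraries and 0.41 without that library (adjusted p = 0.44). These intervals bound what could have been missed and do not show that the levels are the same. The third experiment has no group with inhibitor and no ligand. Between the ligands with inhibitor present, 0 genes (0% of those tested) were called by limma or by edgeR, with 191 genes at an unadjusted p under 0.05 in limma. DESeq2 called 2 genes, with no member among them. The members' log2 differences (rDLL4+RO minus rJAG1+RO) were 0.15, -0.29 and 0.05 for Hey1, Hey2 and Heyl.

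The 2 recombinant ligands differed most in Heyl and Hey1. Mean signal on rJAG1 was 4.55-fold that on rDLL4 for Heyl, 2.72-fold for Hey1 and 1.72-fold for Hey2, and no rDLL4 library overlapped with an rJAG1 library for any member. Heyl ranked 1 and Hey1 ranked 2 by p-value among all 13407 genes in this comparison, with log2 differences of -1.51 ± 0.16 (rDLL4 minus rJAG1; adjusted p = 0.00105, limma) and -1.29 ± 0.14 (adjusted p = 0.00125). Hey2 differed by -0.75 ± 0.25 and did not pass (adjusted p = 0.382), although with the replicate number as a block it did (adjusted p = 0.0402). Without rJAG1 library 2, Hey1 (-1.16) and Heyl (-1.62) kept their calls and Hey2 (-0.81) again did not pass. Genes called lower on rDLL4 made up 0.127% of all tested, and 0.395% with the block. The amount and activity of coated ligand are not given in the sources used here, and the ligands carry different tags, so ligand identity, tag and dose cannot be told apart.

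**Figure D2:**
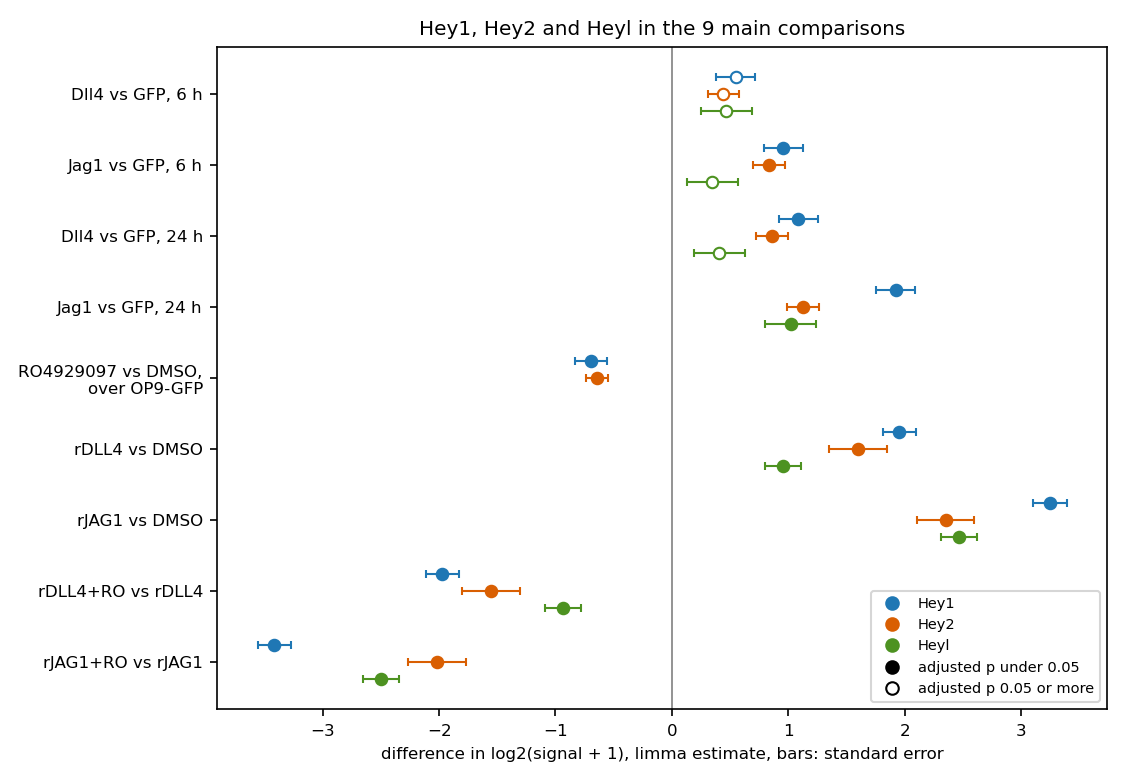
Difference in log2(signal + 1) with its standard error for Hey1, Hey2 and Heyl in the 9 main comparisons (limma, 1 fit per experiment, libraries not paired). Filled points passed an adjusted p of 0.05 and open points did not. With same-numbered libraries of each time paired, Hey1 and Hey2 over OP9-Dll4 at 6 h also passed. Ligand comparisons lie to the right of 0 and inhibitor comparisons to the left, with Hey1 on rJAG1 farthest out at 3.25 and -3.41.

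The drop with inhibitor was tested for a difference between ligands. It was smaller on rDLL4 than on rJAG1 by 1.44 (95% interval 1.01 to 1.87) on the log2 scale for Hey1 and by 1.56 (1.09 to 2.03) for Heyl, each at an adjusted p of 0.0258 (limma). They were the only 2 genes called in this test, 0.0149% of those tested. With same-numbered libraries paired as a block Hey1 kept its call (adjusted p = 0.0425) and Heyl lost it (0.0591), and both calls were lost in most of the other settings tried. For Hey2 the difference was 0.46 (-0.28 to 1.21; adjusted p = 1). This test and that between the ligands without inhibitor share the rDLL4 and rJAG1 libraries. With inhibitor the ligands differed by 0.15 for Hey1 and 0.05 for Heyl (rDLL4 minus rJAG1), and without it by -1.29 and -1.51. The test thus largely repeats the difference without inhibitor and does not show that the inhibitor acted differently on the 2 ligands.

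Over feeders, contact for 24 h with OP9-Jag1 raised all 3 members, and contact with OP9-Dll4 raised Hey1 and Hey2. Hey1 stood at 1.74, 1.70 and 2.14 over OP9-GFP, at 4.45, 4.3 and 6.69 over OP9-Dll4 and at 9.73, 8.57 and 11.3 over OP9-Jag1. The 3 groups did not overlap. Mean Hey1 signal was 2.77-fold higher over OP9-Dll4 (5.15 ± 1.34) and 5.31-fold higher over OP9-Jag1 (9.86 ± 1.36) than over OP9-GFP (1.86 ± 0.25). The log2 differences were 1.09 ± 0.17 (adjusted p = 0.00718, limma) and 1.92 ± 0.17 (adjusted p = 1.03e-05).

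Hey2 at 24 h stood at 10.7, 10.6 and 8.65 over OP9-GFP, at 21.0, 19.0 and 16.8 over OP9-Dll4 and at 24.9, 23.9 and 20.2 over OP9-Jag1. Libraries with either ligand lay above all with GFP, while the 2 ligand groups overlapped. The mean was 1.90-fold higher over OP9-Dll4 (18.9 ± 2.09) and 2.30-fold higher over OP9-Jag1 (23.0 ± 2.44) than over OP9-GFP (9.99 ± 1.16). The log2 differences were 0.86 ± 0.13 (adjusted p = 0.00755, limma) and 1.13 ± 0.13 (adjusted p = 0.000412). The OP9-Dll4 call was lost without OP9-Dll4 library 1 (adjusted p = 0.0783) or OP9-GFP library 3 (adjusted p = 0.0598).

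Heyl at 24 h rested on few reads. It had 4 reads in all over OP9-GFP (signals of 0.106, 0.108 and 0.160), 21 over OP9-Dll4 (0.258, 0.516 and 0.744) and 60 over OP9-Jag1 (1.01, 0.723 and 2.44). Every ligand library lay above the GFP libraries, and the 2 ligand groups overlapped. Pooled reads were 5.26-fold (exact 95% interval 1.77 to 21.1) and 14.5-fold (5.38 to 55.0) those over OP9-GFP. The log2 difference passed over OP9-Jag1 (1.02 ± 0.22, adjusted p = 0.0177, limma) and not over OP9-Dll4 (0.41 ± 0.22, adjusted p = 0.846). The OP9-Jag1 call was lost without OP9-GFP library 1 (adjusted p = 0.071), OP9-GFP library 2 (0.0779) or OP9-Jag1 library 3 (0.0966), the last being the highest of its group. Of all genes, 0.266% were called higher over OP9-Dll4 and 1.04% over OP9-Jag1 at 24 h. The endothelial and endocardial markers summed to 107 to 109 over OP9-GFP, 82.6 to 89.4 over OP9-Dll4 and 77.4 to 87.9 over OP9-Jag1 there, and their part in these differences was not tested.

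Genes of heart muscle moved together with the OP9-Dll4 libraries at 24 h. Myh7, Myl2, Actc1 and Ttn were called higher there, but outside the OP9-Dll4 libraries none of them reached a signal of 1, so they are listed only through the groups where they are high and their calls are fixed in part by that. The 6 cardiomyocyte markers listed together summed to 43.8 to 79.1, against 29.5 to 33.2 over OP9-GFP. The ventricular myosin gene Myh7 stood at 19.5, 6.64 and 6.37 over OP9-Dll4 at 24 h, at 5.75 in OP9-Dll4 library 3 at 6 h, and at 0.160 or below in the other 14 libraries of the experiment. Myh6, Tnni3, Actn2 and Nppa were not listed. The part of these transcripts in the Hey differences over OP9-Dll4 was not tested. Dll4 is not listed in any table, and Jag1 signal over OP9-Jag1 at 24 h (61.7 to 67.9) was close to that over OP9-Dll4 (58.2 to 61.7), so neither gene checks the feeder labels.

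After 6 h the same order of feeders was seen for Hey1 and Hey2 at smaller distances. Hey1 stood at 1.88, 3.01 and 2.92 over OP9-GFP, at 3.96, 4.39 and 4.29 over OP9-Dll4 and at 6.00, 6.99 and 4.94 over OP9-Jag1, with no overlap. Hey2 stood at 9.52, 9.54 and 7.09 over OP9-GFP, at 13.8, 11.1 and 11.6 over OP9-Dll4 and at 18.6, 16.0 and 14.3 over OP9-Jag1, again with no overlap. OP9-Jag1 raised both genes, 2.30-fold for Hey1 (log2 difference 0.96 ± 0.17, adjusted p = 0.0323, limma) and 1.87-fold for Hey2 (0.84 ± 0.13, adjusted p = 0.02), when 0.072% of all genes were called higher. Both calls were lost without any 1 of 5 of the 6 libraries, with adjusted p up to 0.135 for Hey1 and 0.108 for Hey2. They stood without OP9-GFP library 2 (adjusted p = 0.0498 and 0.0495), the exception. Library 2 of each 6 h group stood apart: the differences were 1.04 (Hey1) and 0.90 (Hey2) without that of OP9-GFP, and 0.86 (adjusted p = 0.135, limma) and 0.84 (adjusted p = 0.08) without that of OP9-Jag1.

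Over OP9-Dll4 at 6 h, mean signals were 1.62-fold (Hey1) and 1.40-fold (Hey2) those over OP9-GFP, with log2 differences of 0.55 ± 0.17 (adjusted p = 0.754, limma) and 0.44 ± 0.13 (adjusted p = 0.739). In this comparison 0.0072% of all genes, 1 gene and no member, were called. That gene was Tuft1, whose profile was the most like that of Hey1. Without library 2 of OP9-GFP or of OP9-Dll4 the differences were 0.63 and 0.52 for Hey1 and 0.51 and 0.50 for Hey2, and none passed. With same-numbered libraries of each time paired as a block, both genes passed, at adjusted p of 0.046 and 0.00819, and so did 0.792% of all genes in the upward direction. Library numbers moved with Hey2 across groups: number 1 held the highest Hey2 signal in 5 of 6 groups of the first experiment, number 3 the lowest in 5 of 6, and in the third experiment number 3 held the highest in 5 of 5. The labels do not say what the numbers mark, although same-numbered libraries correlated in most comparisons, as given below.

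Heyl at 6 h stood at 0.159, 0.602 and 0.369 over OP9-GFP (16 reads), at 0.864, 1.04 and 0.765 over OP9-Dll4 (41 reads) and at 0.694, 1.03 and 0.521 over OP9-Jag1 (35 reads). The OP9-Dll4 libraries lay above all OP9-GFP libraries and the OP9-Jag1 libraries overlapped with them. Neither difference passed (0.47 ± 0.22 and 0.35 ± 0.22, adjusted p = 1 for both, limma), with 95% intervals of 0.01 to 0.93 and -0.11 to 0.81.

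Dll4 and Jag1 feeders were then set against each other. At 6 h, 0 genes (0%) were called by limma or edgeR, with 258 genes at an unadjusted p under 0.05, and the log2 differences (OP9-Dll4 minus OP9-Jag1) were -0.41, -0.39 and 0.12 for Hey1, Hey2 and Heyl. At 24 h, 0.0288% of genes and no member were called. Hey1 had the largest of the members' differences there, -0.83 ± 0.17 (adjusted p = 0.268, limma), with no overlap between the groups. That difference passed with the block within each time (adjusted p = 0.00416, where 0.331% of genes were called lower over OP9-Dll4) and without OP9-Dll4 library 3 (adjusted p = 0.0378). For Hey2 the 24 h difference was -0.27 (95% interval -0.55 to 0.02) and for Heyl -0.61 (-1.07 to -0.15), neither past the threshold under limma with or without the block.

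Over OP9-GFP no member passed the threshold between 24 h and 6 h, which also differ in seeding density, while 19.2% of all genes were called (1312 higher and 1348 lower, and 628 and 645 without OP9-GFP library 2 at 6 h). Log2 differences (24 h minus 6 h) were -0.32 for Hey1 (95% interval -0.68 to 0.03), 0.18 for Hey2 (-0.10 to 0.47) and -0.28 for Heyl (-0.74 to 0.18). The Jag1 effect was larger at 24 h than at 6 h by 0.96 ± 0.24 for Hey1, by 0.29 for Hey2 and by 0.67 for Heyl, none past the threshold (adjusted p = 1 for each, limma), and 0.0072% of genes were called. With the block within each time the Hey1 difference passed (adjusted p = 0.0103), as did 1.31% of all genes. The Dll4 effect at 24 h exceeded that at 6 h by 0.54 for Hey1 and 0.42 for Hey2 (adjusted p = 1 for both, limma), again with 0.0072% of genes called.

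The inhibitor lowered Hey1 and Hey2 also over OP9-GFP, where no ligand had been added. MEEC that had spent 24 h in DMSO gave Hey1 signals of 2.75, 2.55, 2.13 and 2.23, and those from RO4929097 gave 0.738, 1.00, 1.37 and 1.35. For Hey2 the values were 8.84, 10.5, 10.9 and 10.4 against 5.70, 6.08, 5.91 and 6.81. Neither gene's groups overlapped. Mean Hey1 signal was 1.12 ± 0.30 (n = 4) with inhibitor and 2.41 ± 0.29 without, and mean Hey2 signal 6.13 ± 0.48 and 10.1 ± 0.89. Log2 differences were -0.70 ± 0.14 for Hey1 (adjusted p = 0.0488, limma) and -0.64 ± 0.09 for Hey2 (adjusted p = 0.011), where 0.685% of genes were called lower. The Hey1 call sits at the threshold and was lost without any 1 of the 8 libraries (adjusted p 0.0548 to 0.141). The Hey2 call was lost only without DMSO library 3 (adjusted p = 0.0516).

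Within an experiment the members shared the highest groups, and the order of the groups below differed between them. In the first, OP9-Jag1 at 24 h was highest for each and the OP9-GFP groups lowest. Below the top group, Hey1 levels over OP9-Jag1 at 6 h, OP9-Dll4 at 24 h and OP9-Dll4 at 6 h overlapped with their neighbours in the order, as did the 2 OP9-GFP groups with each other. For Hey2 the order ran OP9-Jag1 at 24 h, OP9-Dll4 at 24 h, OP9-Jag1 at 6 h, OP9-Dll4 at 6 h, then OP9-GFP at 24 h and at 6 h, with overlap between neighbours among the top 3 and between the last 2. For Heyl the groups below the top ran OP9-Dll4 at 6 h, OP9-Jag1 at 6 h and OP9-Dll4 at 24 h, and every group overlapped with its neighbour. In the third experiment rJAG1 and rDLL4 stood clear of the rest for each member, and neighbours among the remaining 3 groups overlapped. Of those 3, rJAG1+RO had the highest mean for Hey2 and the lowest for Hey1 and Heyl.

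Set per kb of exon so that genes can be compared, Hey2 made up the largest share of the summed Hey signal in all 11 groups in which all 3 members are listed. The longest transcripts of Hey1, Hey2 and Heyl are 2423, 2550 and 4537 bp, and with these in place of exon length the shares would differ. On DMSO its share was 83.1% ± 6.44 (SD, n = 3), with 15.7% ± 5.90 for Hey1 and 1.26% ± 0.55 for Heyl. On rDLL4 the shares were 69.0%, 27.6% and 3.40%, and on rJAG1 56.7% ± 5.37, 35.9% ± 6.97 and 7.34% ± 1.65. With the inhibitor on rJAG1, Hey2 held 90.2% ± 1.17, Hey1 9.16% ± 1.54 and Heyl 0.673% ± 0.643. The family was thus least dominated by Hey2 on rJAG1 and most on rJAG1+RO among these 5 groups. Over feeders at 24 h the Hey2 share was 78.4% ± 4.41 over OP9-GFP, 71.1% ± 7.48 over OP9-Dll4 and 60.4% ± 6.62 over OP9-Jag1.

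**Figure D3:**
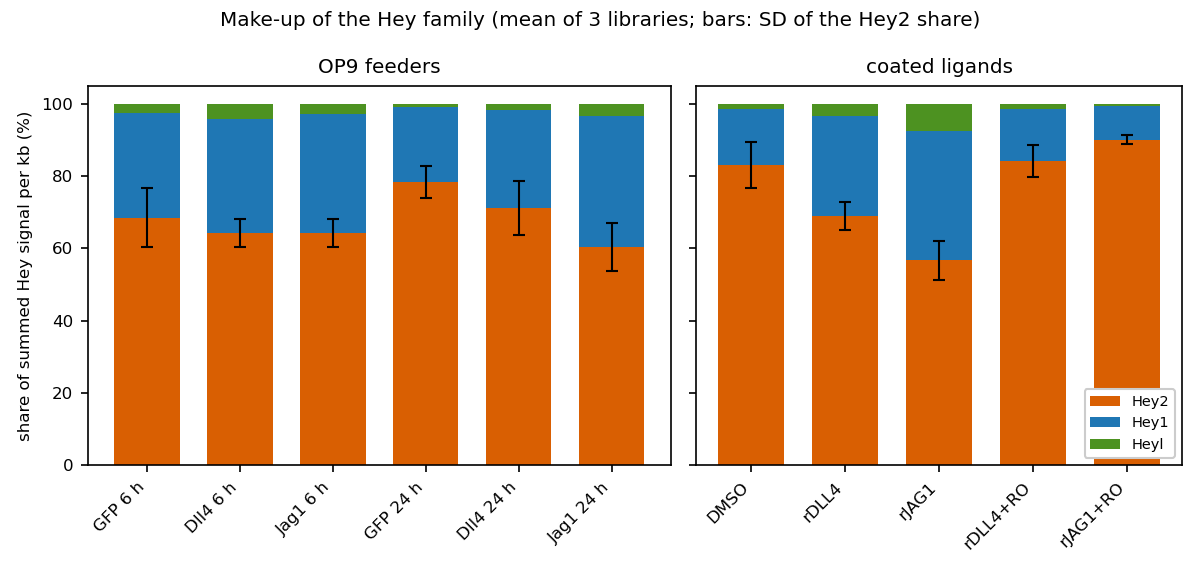
Share of the summed Hey signal per kb of exon (%) held by Hey2, Hey1 and Heyl in the 11 groups where all 3 are listed, as means of 3 libraries with the SD of the Hey2 share. The Hey2 share was 83.1% on DMSO, 56.7% on rJAG1 and 90.2% on rJAG1+RO.

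The log2 ratio of Hey1 to Hey2 signal within a library asks whether the 2 more abundant members moved by the same factor. It was -2.98 ± 0.75 (SD) on DMSO, -1.82 ± 0.25 on rDLL4, -1.16 ± 0.42 on rJAG1, -3.09 ± 0.55 on rDLL4+RO and -3.81 ± 0.25 on rJAG1+RO. Thus Hey1 was higher relative to Hey2 on rDLL4 by 1.16 and on rJAG1 by 1.81 than on DMSO, and lower with inhibitor, by differences of -1.27 on rDLL4 and -2.64 on rJAG1. The groups did not overlap in these 4 comparisons, nor over OP9-Jag1 against OP9-GFP at 24 h, where the ratio was higher by 1.202. Each gave the smallest p that 3 against 3 libraries allow (exact permutation test, two-sided, p = 0.1; 0.18 adjusted over the 9 comparisons), so this permutation test cannot pass 0.05 here. Without DMSO library 3 the rDLL4 value was 0.73 and the rJAG1 value 1.38. Taken on signal + 1, which damps the ratio of a weak gene, the values were 0.35 on rDLL4 (exact permutation p = 0.5), 0.90 on rJAG1, and -0.42 and -1.40 with inhibitor on them. In the other 4 comparisons the groups overlapped, with exact permutation p from 0.143 to 0.7. Over OP9-GFP the inhibitor lowered Hey1 and Hey2 by factors whose log2 ratio differed by -0.42 (exact permutation p = 0.143, n = 4 a group, smallest possible 0.02857).

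**Figure D4:**
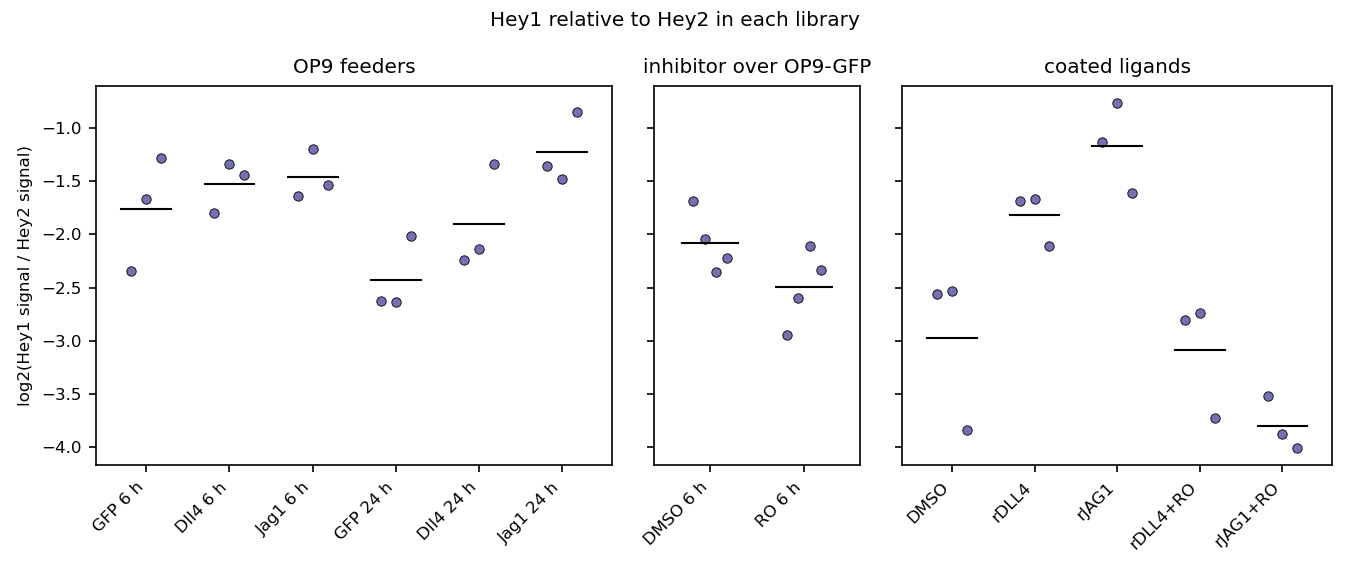
Log2 ratio of Hey1 to Hey2 signal in each library, by group; points are libraries and lines are group means. The ratio averaged -2.98 on DMSO, -1.16 on rJAG1 and -3.81 on rJAG1+RO, and the rJAG1 libraries lie above all others of their experiment.

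Other genes of the pathway were described from lists chosen with earlier results of these data known. Of 12 other Notch targets, 8 were listed in the first experiment and the third and 7 in the second. Hes1, a repressor related to the Hey factors, and Nrarp, a feedback inhibitor of Notch, moved with the members in the coated wells. Hes1 rose by 0.74 ± 0.14 on rDLL4 (adjusted p = 0.00674, limma) and 1.07 ± 0.14 on rJAG1 (adjusted p = 0.000101), and with inhibitor fell on rDLL4 (-1.303) and rJAG1 (-1.52). Nrarp rose by 1.09 ± 0.23 and 2.28 ± 0.23, and with inhibitor fell on both (-1.47 and -2.73). The T-cell factor gene Gata3 rose on rJAG1 (0.66, adjusted p = 0.031). In all, 2 of 8 targets rose on rDLL4, where 2.45% of all genes did, and 3 of 8 on rJAG1, where 4.83% did, with a median log2 difference over the list of 0.27 and 0.44 against 0.00 over all genes.

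Over feeders Nrarp rose with OP9-Jag1 at 6 h (1.79 ± 0.30, adjusted p = 0.0251, limma) and with OP9-Dll4 (1.77) and OP9-Jag1 (2.25) at 24 h. Over OP9-Dll4 at 6 h its difference was 1.22 (adjusted p = 0.542), and 0.00408 with library numbers as a block. Hes1 did not pass over feeders (0.42 to 0.59, adjusted p 0.0549 to 0.542) and passed in each of the 4 feeder comparisons with that block. Gata3 rose over OP9-Jag1 at 24 h (0.58), and with the block also over OP9-Jag1 at 6 h (0.54) and OP9-Dll4 at 24 h (0.54). That block called 5 and 48 of 13886 genes higher over OP9-Dll4 and OP9-Jag1 at 6 h, and 119 and 311 at 24 h. In the inhibitor experiment Hes1 fell by 0.90, Nrarp fell by 0.82 and the cell cycle gene Ccnd1 rose by 0.55. Of 12984 genes, 89 were called lower there and 29 higher.

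Among relatives with the same helix-loop-helix-Orange fold, 4 of 9 were listed. Besides Hes1, Bhlhe41, a clock-linked repressor, fell on rDLL4 (-0.89 ± 0.15, adjusted p = 0.0028, limma), on rJAG1 (-0.91) and over OP9-Jag1 at 24 h (-0.67), and rose with inhibitor on rDLL4 (0.59) and rJAG1 (0.74). Its relative Bhlhe40 fell with inhibitor in all 3 inhibitor comparisons (-0.42 over OP9-GFP, -0.57 on rDLL4 and -0.58 on rJAG1). In the coated wells Bhlhe41 thus moved against the members and Hes1 with them. For Bhlhe40 the calls are those with inhibitor, where 0.685% (over OP9-GFP), 5.76% (rDLL4) and 8.78% (rJAG1) of all genes were called lower.

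Of 9 receptors and ligands, 5 were listed in the first experiment and the third. The ligand gene Jag1 rose on rDLL4 (0.89 ± 0.15, adjusted p = 0.00315, limma), on rJAG1 (1.40) and over OP9-Jag1 at 24 h (0.61), and fell with inhibitor on rDLL4 (-1.22), on rJAG1 (-1.52) and over OP9-GFP (-0.46). The OP9-Jag1 feeders carry Jag1 themselves, so a rise of Jag1 over them cannot be assigned to MEEC. Notch1 rose over OP9-Jag1 at 24 h (0.83) and fell with inhibitor on both ligands (-0.77 and -0.76), and Jag2 rose with inhibitor on rJAG1 (0.38). Of 11 genes of the cleavage and nuclear complex measured, Psen2, which encodes a catalytic subunit of gamma-secretase, fell on rDLL4 (-0.62 ± 0.12, adjusted p = 0.00792), on rJAG1 (-0.77) and over OP9-Jag1 at 24 h (-0.65), and rose with inhibitor on both ligands (0.81 and 0.97). Rbpj fell on rJAG1 (-0.34) and over OP9-Jag1 at 24 h (-0.25) and rose with inhibitor (0.25 and 0.46), as did Adam10 (0.29 and 0.40), which encodes a protease of the step before gamma-secretase. With inhibitor, 658 of 13407 genes were called higher on rDLL4 and 1284 on rJAG1. With library numbers as a block further calls were added: Jag1 over OP9-Jag1 at 6 h (0.55) and OP9-Dll4 at 24 h (0.47), Notch1 on rJAG1 (0.56), Jag2 with inhibitor on rDLL4 (0.29) and Psen2 with inhibitor over OP9-GFP (0.46). That block called 48 of 13886 genes higher over OP9-Jag1 at 6 h and 119 over OP9-Dll4 at 24 h. Of 13407 genes it called 990 higher on rJAG1 and 1101 with inhibitor on rDLL4. Over OP9-GFP it called 157 of 12984 higher with inhibitor.

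Of 8 genes reported elsewhere as repressed by Hey factors, 6 were listed in the third experiment, with median log2 differences of 0.10 on rDLL4 and 0.02 on rJAG1. On rDLL4, 1 rose and 1 fell, where 2.45% of all genes rose and 1.05% fell, and on rJAG1, 1 rose and 2 fell, where 4.83% rose and 4.76% fell. Bmp2, a growth factor gene of the atrioventricular canal, rose on rDLL4 (0.66 ± 0.15, adjusted p = 0.0219, limma) and rJAG1 (1.07 ± 0.15, adjusted p = 0.000178) from a mean signal of 0.183 on DMSO to 0.882 and 1.49, and fell with inhibitor on both (-0.64 and -1.18). It reached a signal of 1 in ligand libraries only, so it is listed through the groups where it is high, and its call is not evidence about the list. Mycn fell on rDLL4 (-0.52) and rJAG1 (-0.57), and Gata6, a cardiac transcription factor gene also listed as a partner, fell on rJAG1 (-0.35) and rose with inhibitor (0.51 on rDLL4 and 0.49 on rJAG1). With inhibitor on rJAG1, Kdr fell (-0.55) and Mycn rose (0.49). With library numbers as a block, Tbx20 rose on rDLL4 (0.34) and rJAG1 (0.28), where 539 and 990 of 13407 genes did. Of the 5 genes listed in the other experiments none passed there, except that with library numbers as a block Mycn fell over OP9-Dll4 (-0.30) and OP9-Jag1 (-0.54) and Gata6 over OP9-Jag1 (-0.19) at 24 h. Of 13886 genes, that block called 128 lower over OP9-Dll4 and 317 over OP9-Jag1 at 24 h.

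Partners and corepressors of the Hey proteins were listed for 10 of 10 genes, and apart from Hes1 and Gata6, 1 changed: the deacetylase gene Sirt1 rose with inhibitor on rJAG1 (0.23, adjusted p = 0.0341, limma). Of 13407 genes, 1284 were called higher there and 658 with inhibitor on rDLL4, so single rises with inhibitor are not evidence about a list. Among BMP and TGF-beta response genes, Skil did not pass with ligand without the block, and with it rose on rJAG1 (0.18). With inhibitor on rDLL4 and rJAG1, Skil (-0.54 and -0.50) fell and Id2 (0.74 and 0.81) and Bambi (0.53 and 0.44) rose, and Smad6 rose on rJAG1 (0.44). Among endothelial markers, the progenitor marker Cd34 moved against the members: it fell on rDLL4 (-0.58), on rJAG1 (-0.93) and over both ligand feeders at 24 h (-0.48 and -0.59) and rose with inhibitor (0.37 and 0.67, and with the block also over OP9-GFP, 0.38), and Nfatc1, an endocardial transcription factor gene, fell with inhibitor (-1.12 and -1.08). On rJAG1 with inhibitor, Eng (-0.73) and Kdr (-0.55) fell and Tek (0.76) rose.

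Among the stromal list, Postn, a matrix gene, rose on rDLL4 (0.85) and rJAG1 (1.39) and fell with inhibitor (-1.05 and -1.77), and Col1a1 did the same (0.53 and 0.59, then -0.72 and -0.72). Cxcl12 rose on rJAG1 (0.56) and fell with inhibitor there (-0.46), Pdgfrb fell with inhibitor on both ligands (-0.74 and -0.85), and Col3a1 (0.84) and Kitl (0.35) rose with it on rJAG1. No stromal marker passed in the 4 feeder comparisons or with inhibitor over OP9-GFP without the block, and with it Postn rose over OP9-Jag1 at 24 h (1.28) and Col1a1 fell with inhibitor over OP9-GFP (-0.35). With the block, 311 of 13886 genes rose over OP9-Jag1 at 24 h and 270 of 12984 fell with inhibitor over OP9-GFP. Of 2 cardiomyocyte markers listed in the third experiment, Myl7 rose with inhibitor (0.91 and 1.05) and Tnnt2 fell (-0.85 and -0.81). Of the leukocyte and erythroid list the globin gene Hbb-bs alone passed, over OP9-Dll4 at 24 h (1.71, adjusted p = 0.0178, limma). Its signal was low: the 2 genes of that list listed there together summed to 3.51 to 7.58, against 2.17 to 2.82 over OP9-GFP at 24 h. Hey1 and Hey2 were also called over OP9-Dll4 at 24 h, and the part of Hbb-bs in their difference was not tested.

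The genes with the profiles most like those of the members were ranked by Pearson correlation of log2(signal + 1), centred within each table. This describes libraries that share treatments and depth and carries no test. Over all 41 libraries and 12460 genes, Hey1 was most like Tuft1 (r = 0.97), Myo7a (0.954), Ntn4 (0.948), Ctsc (0.947) and Isg20 (0.946). Hey2 was most like Arhgap42 (0.923), Tuft1 (0.923), Jag1 (0.916), Prag1 (0.911) and Hey1 (0.908). Over the 33 libraries of the tables that list it, Heyl was most like Hey1 (0.935), Rarres1 (0.92), 4833422C13Rik (0.919), Ctsc (0.916) and Dsg2 (0.914), and Hey2 came 58th of 12687 genes (0.833). Across the 9 main comparisons Tuft1 had log2 differences of 1.47 on rDLL4, 2.01 on rJAG1 and -0.55 with inhibitor over OP9-GFP, and Dsg2, a desmosomal cadherin gene, 2.31, 3.36 and -0.97.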

How the data were processed

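For each experiment the authors deposited a matrix of genes by libraries in units of normalized signal. Per the submitters' processing notes FastQC, cutadapt, RSEM, limma and build GRCm38 were used, with no versions. Each deposited signal equals a whole number of reads plus 0.5, divided by a scaled library size. Whole reads recovered from it came out whole for 100% of values within 0.01 reads, in 30 libraries from at least 100 low values and in 11 from fewer. Symbols matched GENCODE M21 for 13863, 12964 and 13384 identifiers. Strand setting and annotation release of the counting are not given in the sources used here.

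On log2(signal + 1), limma 3.58.1 (R 4.3.3, mean-variance trend) was fitted with all groups of a table, Benjamini-Hochberg adjustment over the table and calls at an adjusted p under 0.05. Any adjusted p with no other tool named is from that limma fit. The 3 tables have their own normalization and were not tested against each other. Alternatives were pseudocounts of 0.5 and 0.1, a signal minimum of 2, quantile normalization, replicate blocks, only the groups compared, each library left out, and edgeR 4.0.16 and DESeq2 1.42.0 on recovered reads. Scripts were tested on simulated data. Intervals of pooled reads are Clopper-Pearson and, like floors, carry no error beyond counting, because reads copied by PCR from 1 molecule are not independent.

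Deviations from the group means correlated between libraries of the same number in every comparison but that of 24 h with 6 h. There r ran from 0.124 to 0.792, above the threshold of 0.1, so the numbers in the titles pair the libraries. The main fit was made without this pairing, and its calls do not use it. Calls of members that the block changed are given with their comparisons. Between 24 h and 6 h over OP9-GFP r ran from 0.0494 to 0.158, on both sides of the threshold. Each of the 3 numbers was best matched by itself there, as against 2 of 3 in some of the other comparisons. No pair of libraries of a group agreed within sampling noise (mean chi-square per gene 5.45 to 52.5). The members, the lists, the comparisons and the tests were chosen with earlier results of these data known. Genes named from the lists are those called in at least 1 of the 9 main comparisons, at most 6 a list by smallest adjusted p, and for each member the 5 genes most like it among those with a mean signal of at least 1 in each table. Cardiomyocyte, stromal and leukocyte lists were chosen to mark other cells. Genes of each were also listed in the third experiment, which had no feeders, so a change in them is not evidence of other cells. The result of 1 gene of the BMP and TGF-beta list is not reported here.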

Additional observations from a re-analysis of the deposited data

Results flagged for a closer look

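The drop with RO4929097 differed between the recombinant ligands for 2 members by the test of the difference itself. Without inhibitor the ligands already differed, by -1.29 for Hey1 and -1.51 for Heyl (rDLL4 minus rJAG1), and with it by 0.15 and 0.05. The test thus largely repeats the first difference and does not show a different action of the inhibitor. Both genes are listed in this experiment through the ligand groups. For Hey1 the drop on rJAG1 exceeded that on rDLL4 by 1.44 on the log2(signal + 1) scale, with means of 16.0 without and 0.586 with inhibitor on rJAG1, and 5.89 and 0.751 on rDLL4. For Heyl it was larger by 1.56, with means of 5.15 and 0.0757 on rJAG1, and 1.13 and 0.111 on rDLL4. Both had an adjusted p of 0.0258 (limma). With same-numbered libraries paired as a block it was 0.0425 for Hey1 and 0.0591 for Heyl, so the paired fit leaves 1 of the 2 calls, and over the alternatives it ran from 0.0246 to 0.333 for Hey1 and from 0.0251 to 0.999 for Heyl.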

How the results depend on the processing

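Quantile normalization changed no call of a member. Log2 differences below are in the direction of the report, and where a call changed the cause was not tested unless fewer libraries or genes enter by construction.

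With the block on same-numbered libraries within each time, Hey1 (0.55) and Hey2 (0.44) passed over OP9-Dll4 at 6 h, as did Hey1 between Dll4 and Jag1 feeders at 24 h (-0.83) and Hey1 in the difference of the Jag1 effect between times (0.96). With 1 replicate block for each experiment, Hey2 passed between rDLL4 and rJAG1 (-0.75) and Heyl lost its call in the difference of the inhibitor effect between ligands (1.56). The block changed no other call of a member, and within each time it could not be fitted for 24 h against 6 h over OP9-GFP, where time and block coincide.

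With only the groups compared in the fit, calls were lost over OP9-Jag1 for Hey1 (0.96) and Hey2 (0.84) at 6 h and Heyl (1.02) at 24 h. The Hey1 call for inhibitor over OP9-GFP was lost with pseudocounts of 0.5 (-0.87) and 0.1 (-1.08), with the minimum signal of 2 (-0.70) and in edgeR (-1.13). The difference of the inhibitor effect between ligands lost its calls with pseudocounts of 0.5 (Hey1 1.57, Heyl 1.87) and 0.1 (1.75 and 2.42), with the minimum signal (1.44 and 1.56) and in edgeR (1.84 and 2.84), and Heyl also in DESeq2 (2.91). Heyl between rDLL4 and rJAG1 lost its call at a pseudocount of 0.1 (-2.08), and DESeq2 called Hey1 between feeders at 24 h (-0.93). Signs turned without a call for Heyl in the Dll4 effect between times (0.19 at a pseudocount of 0.1, 0.99 in edgeR, 1.06 in DESeq2) and for Hey2 on rDLL4+RO against DMSO (-0.019 in edgeR, -0.035 in DESeq2). The Hey1 to Hey2 ratio taken on signal + 1 gave 0.79 over OP9-Jag1 at 24 h, -0.053 for inhibitor over OP9-GFP, 0.35 on rDLL4, 0.90 on rJAG1, and -0.42 and -1.40 with inhibitor on them.

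Leaving out each library in turn gave 0.80 to 1.07 (Hey1) and 0.71 to 0.92 (Hey2) over OP9-Jag1 at 6 h, 0.77 to 0.94 for Hey2 over OP9-Dll4 and 0.73 to 1.22 for Heyl over OP9-Jag1 at 24 h, and -1.01 to -0.74 for Hey1 between feeders at 24 h. The Dll4 effect between times gave -0.17 to 0.065 for Heyl, and inhibitor over OP9-GFP gave -0.76 to -0.61 for Hey1 and -0.70 to -0.61 for Hey2. Against DMSO, rDLL4+RO gave -0.051 to 0.027 (Hey1), -0.15 to 0.41 (Hey2) and -0.0093 to 0.051 (Heyl), and rJAG1+RO -0.093 to 0.0051 (Heyl). The inhibitor effect between ligands gave 1.31 to 1.57 for Hey1 and 1.40 to 1.67 for Heyl. All calls on rDLL4, rJAG1 and their inhibitor arms stood without each library.

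Counts of all genes called (higher, lower) moved by over 1.5 times in the settings that follow, among others. The block within each time turned 1 and 0 over OP9-Dll4 and 10 and 4 over OP9-Jag1 at 6 h into 110 and 52 and 282 and 185, and 37 and 34 and 144 and 137 at 24 h into 391 and 417 and 770 and 742. The replicate block turned 29 and 89 for inhibitor over OP9-GFP into 157 and 270, 328 and 141 on rDLL4 into 539 and 329, 647 and 638 on rJAG1 into 990 and 1032, and 658 and 772 for inhibitor on rDLL4 into 1101 and 1214. DESeq2 gave 41 and 17 over OP9-Jag1 at 6 h, 66 and 71 and 207 and 215 at 24 h, and 118 and 209 for the inhibitor over OP9-GFP. Between rDLL4 and rJAG1, 14 and 17 became 65 and 53 with the block, 53 and 39 in DESeq2 and 10 and 7 in edgeR. With only the groups compared, 119 and 38 were called on rDLL4 and 317 and 237 on rJAG1. Leaving out 1 library gave as few as 1 and 0 over OP9-Jag1 at 6 h (OP9-GFP library 1), 6 and 4 over OP9-Dll4 (its library 1) and 58 and 56 over OP9-Jag1 (its library 1) at 24 h, 6 and 42 for inhibitor over OP9-GFP (DMSO library 3), 170 and 69 on rDLL4 (its library 1), 4 and 8 between rDLL4 and rJAG1 (rDLL4 library 2), and against DMSO 23 and 48 on rDLL4+RO and 13 and 33 on rJAG1+RO (library 3 of each). Without DMSO library 3 there were 422 and 336 on rDLL4 and 909 and 976 on rJAG1. Depth limits Heyl most, with at most 6 reads a group on DMSO and with inhibitor.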
